A study of Mus musculus with 29 samples.

Results

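RNA-seq libraries of 5 mice treated with dual ICI and 5 untreated mice, all euthanized on day 21 after tumor implantation, were compared across all genes. They are 10 of the 29 libraries of the series, chosen by the treatment and the day in their titles, 1 library per mouse. All 10 mice were female C57BL/6J mice, 5 to 6 weeks old when they were divided into groups. Each received YTN16 cells, a transplantable mouse gastric cancer line, into the peritoneal cavity on day 0. The dual ICI mice received anti-PD1 (10 mg/kg) together with anti-CTLA4 (5 mg/kg) by IP injection on days 5, 8 and 12, and the untreated mice received PBS. The question is which transcripts differ between the groups 3 weeks after implantation. The tissue is labelled as tumor, and the study's methods describe peritoneum with or without nodules, so host tissue can be part of each sample.

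PD1 and CTLA4 are inhibitory receptors of T cells. PD1 acts on T cells that meet antigen in tissue, and CTLA4 competes for the costimulatory ligands that prime them, so antibodies to both can free T cells to divide, enter tumors and release granule proteins and interferon gamma. Interferon gamma acts through its receptor on most cells around the T cell, and the promoters of the genes it induces often hold a GAS element or an ISRE. Classical targets are the guanylate binding proteins, the immunity-related GTPases, the immunoproteasome, the peptide transporter and, through the coactivator Ciita, MHC class II.

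The sequences of 3 promoters are given. Their genes rose in the dual ICI mice and are classical interferon targets. They were picked among genes that rose and hold a GAS or ISRE match, so that these 3 hold one is not a result. Each is the 250 bases before the transcription start, from RefSeq on GRCm38.p6. Igtp, an immunity-related GTPase, is at chr11:58199306-58199555 (plus strand). Gbp2b, a guanylate binding protein, is at chr3:142594597-142594846 (plus strand). Irf8, a transcription factor of myeloid cells, is at chr8:120736108-120736357 (plus strand). Capitals mark matches to TTCNNNGAA (GAS, the same on both strands) and to GAAANNGAAA or its reverse complement TTTCNNTTTC (ISRE).
Igtp: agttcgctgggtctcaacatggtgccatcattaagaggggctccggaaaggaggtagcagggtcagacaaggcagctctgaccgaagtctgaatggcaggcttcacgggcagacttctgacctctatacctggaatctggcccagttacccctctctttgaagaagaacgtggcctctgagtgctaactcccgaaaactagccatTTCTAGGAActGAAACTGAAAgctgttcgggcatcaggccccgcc
Gbp2b: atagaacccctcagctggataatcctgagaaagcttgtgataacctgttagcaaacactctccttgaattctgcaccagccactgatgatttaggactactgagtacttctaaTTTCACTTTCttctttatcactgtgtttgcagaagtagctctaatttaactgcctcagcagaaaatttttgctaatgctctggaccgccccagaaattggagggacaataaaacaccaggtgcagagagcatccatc
Irf8: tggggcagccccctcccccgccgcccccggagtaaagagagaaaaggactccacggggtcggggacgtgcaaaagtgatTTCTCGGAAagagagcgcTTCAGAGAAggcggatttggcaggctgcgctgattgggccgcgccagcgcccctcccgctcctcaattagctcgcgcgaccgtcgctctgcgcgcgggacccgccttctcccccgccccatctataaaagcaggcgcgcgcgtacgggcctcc
The Igtp window holds a GAS match that begins 45 bases before the start and an ISRE match that begins 34 bases before it. The Gbp2b window holds an ISRE match 137 bases before the start, and the Irf8 window holds GAS matches 171 and 153 bases before the start. Over all 27025 genes of the promoter table, 8.13% had a GAS match and 3.46% an ISRE match in the same window. Over the 11658 tested genes with a promoter entry, the shares were 7.44% and 3.35%. Among the 73 genes that rose, 52 had a promoter entry, of which 11 had a GAS match (21.2%) and 6 an ISRE match (11.5%). Of the 16 genes that fell, 10 had an entry and 0 had either match. A match is a description of the sequence, and none of these sites was measured.

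Library totals were 28625462, 27581158, 28649129, 28123354 and 28681432 counts in untreated mice 1 to 5 and 30017495, 30861280, 29242933, 31219650 and 29113101 in dual ICI mice 1 to 5. All dual ICI libraries were larger than all untreated libraries, by 1758785 counts on average (p = 0.00794 in a two-sided exact permutation test, which cannot go lower with 5 mice per group), and the library identifiers in the table run in 1 block per group, so the order of handling and the treatment cannot be told apart. Between 17730 and 18244 genes had at least 1 count in a library. The unit of level is CPM, the count per 1000000 counts of the TMM-normalized library, always in the order of mice 1 to 5.

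The tissue makeup varied from mouse to mouse within both groups. A list of 28 skeletal muscle genes took 15.1, 17.2, 16.9, 8.86 and 18.2% of the counts in the untreated mice and 21.8, 18.9, 13.8, 8.16 and 12.2% in the dual ICI mice. The 24 listed genes of gastric epithelium, the tissue of origin of the tumor cells, took 0.198, 0.0896, 0.155, 0.314 and 0.136% and 0.0873, 0.0891, 0.196, 0.366 and 0.243%. Untreated mouse 4 and dual ICI mouse 4 were the lowest in muscle and the highest in epithelium of their groups, and the groups overlapped for both lists. Acta1, skeletal muscle actin, ranged from 13231 to 37216 CPM in untreated and from 11805 to 47874 CPM in dual ICI mice, and its difference did not pass the test (log2 difference 0.05, adjusted p = 0.989). Epcam, an epithelial adhesion molecule, ranged from 100.2 to 295 CPM and from 119.7 to 395 CPM, with a log2 difference of 0.15 (adjusted p = 0.949). The labelled tumor tissue therefore holds epithelial markers in every library, beside a larger share of muscle. In the first principal component, which held 47.1% of the variance, dual ICI mouse 4 stood at 74.0 and dual ICI mouse 1 at -46.5, and the groups overlapped. In the second, which held 18.2% of the variance, the untreated mice lay between 14.7 and 31.6 and the dual ICI mice between -29.2 and -4.72, without overlap. In bulk tissue, fewer cells of a type and less RNA per cell cannot be told apart.

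**Figure D1:**
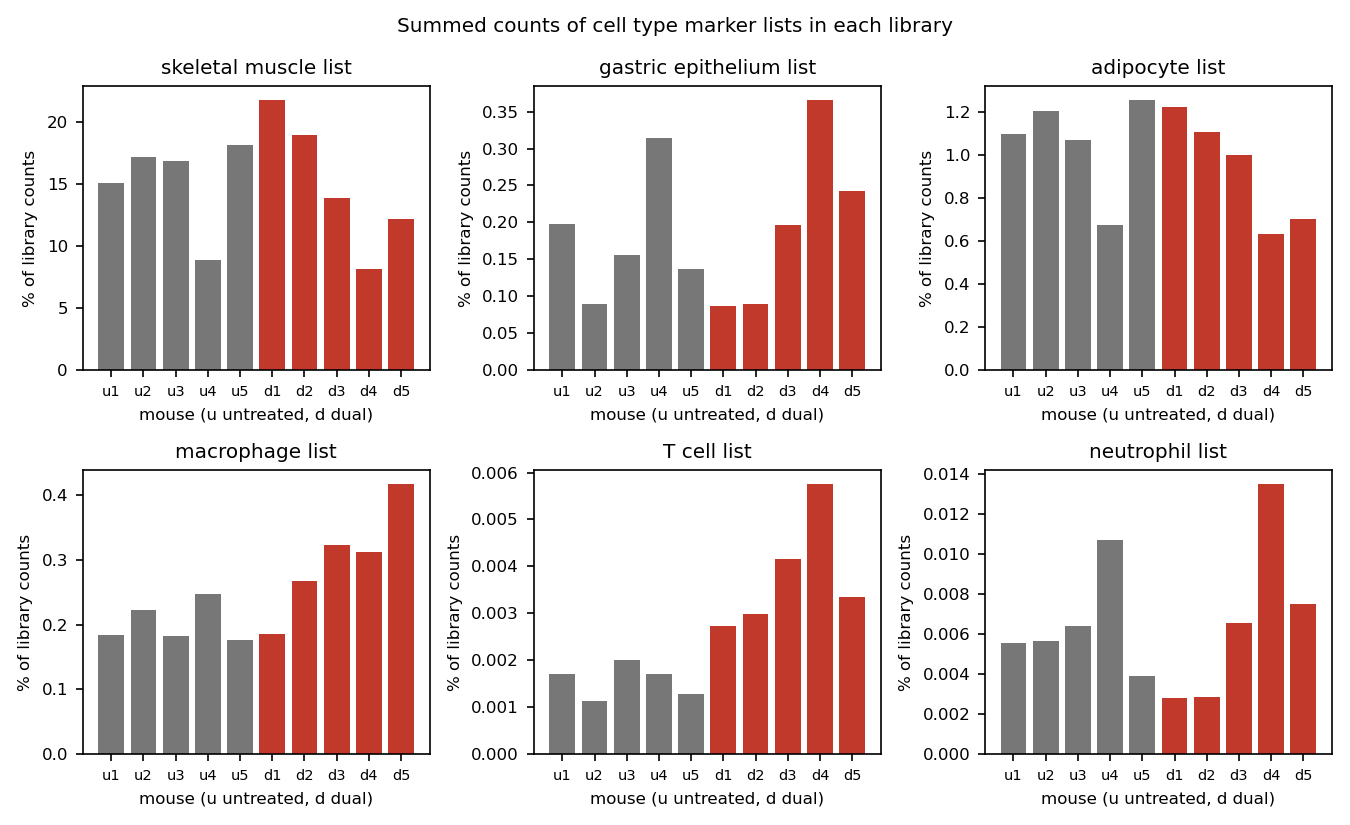
Share of the counts of each library (y axis, percent) taken by 6 lists of cell type markers, in untreated (grey) and dual ICI (red) mice, 1 bar per library. Muscle and epithelium vary within both groups, while the T cell bars of the dual ICI mice are all above those of the untreated mice.

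Of 15503 genes tested, 73 were higher and 16 were lower in the dual ICI mice at an adjusted p under 0.05 (edgeR's quasi-likelihood test with Benjamini-Hochberg adjustment), which is 0.574% of the genes tested, 0.471% higher and 0.103% lower. At an unadjusted p under 0.05 there were 934 higher (6.02%) and 724 lower (4.67%). The median log2 fold change over all tested genes was 0.02. For all 89 genes no dual ICI mouse overlapped the untreated mice, against 299 higher (1.93%) and 196 lower (1.26%) non-overlapping genes among all tested. The 73 genes that rose changed by at least 0.49 on the log2 scale, and 53 of them by more than 2-fold. Dual ICI mouse 4 held the highest level of the group for 40 of the 73 genes, and mice 1 and 2 held the lowest for 24 each. With each mouse left out in turn, between 6 and 119 genes were called. Ccl5, Nkg7, Slamf8, Sh2d1a, H2-DMb2 and H2-DMa were called in all 10 of those fits. Cd247 was called in 8 of them, Gbp2b and Gkn3 in 7, Cd3g, Cd8a and Cd8b1 in 6, Gzmk in 5, Irg1 and Zap70 in 4, Igtp in 3, Tap1 and Irf8 in 2, and Cst7, Cyp7b1, Cyyr1, Fgfr3, Mtcl1 and Npas2 in none. Across those fits the number of genes called higher ran from 0 to 3 in the T cell list, from 1 to 4 for cytotoxic granule genes, from 0 to 8 for guanylate binding proteins, from 0 to 4 for immunity-related GTPases, from 2 to 7 for MHC class II and from 0 to 4 for MHC class I. Without dual ICI mouse 4, 64 genes were called, 56 of them among the 89. When all 29 libraries were fitted together, 8 genes were called for this comparison, 7 of them among the 89. The gastric epithelium score of a mouse is the mean log2 CPM of the tested list genes. It was 4.76, 4.19, 4.73, 5.23 and 4.57 in the untreated mice and 3.55, 3.41, 4.23, 5.03 and 4.64 in the dual ICI mice. Dual ICI mice 1 and 2 lay below all untreated mice, so score and treatment are partly confounded. With the gastric epithelium score of each mouse as a covariate, 1921 genes were called higher (12.4%) and 1438 lower (9.28%), among them all 89. In that fit the calls took in 11 of 11 guanylate binding proteins, 9 of 10 immunity-related GTPases, 10 of 11 MHC class II genes and 7 of 9 T cell genes, all higher, and 12 of 17 adipocyte genes, all lower. They also took in members of many lists with no call in the main test. Among immune lists they included 9 of 12 inhibitory receptors and 4 of 4 genes of CXCR3 and its ligands, all higher, 8 higher and 1 lower of 11 checkpoint ligands, 7 higher and 1 lower of 21 genes of the type I interferon response, and 8 of 16 macrophage, 5 of 8 monocyte and 4 of 7 neutrophil genes, all higher. The fit also called higher 2 of 6 regulatory T cell, 3 of 8 NK cell, 2 of 7 B cell and 1 of 7 mast cell genes, and none of 4 plasma cell and 3 eosinophil genes. Of the ligand and signalling lists, the fit called higher 6 of 11 costimulatory genes, 5 of 10 genes of the common gamma chain family, 3 of 5 CXCR2 ligands, 5 of 12 other cytokines and 5 of 7 genes of metabolic immune suppression. It called 10 higher and 2 lower of 24 T cell transcription factors, 3 higher and 1 lower of 11 complement genes, and 0 higher and 1 lower of 20 genes of the IL6 family and JAK-STAT list. Among other lists, 23 of 23 genes of mitosis and DNA replication were called higher, and 12 of 28 skeletal muscle and 4 of 13 endothelial genes lower, against 0 of 15 fibroblast and 0 of 8 mesothelial genes.

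**Figure D2:**
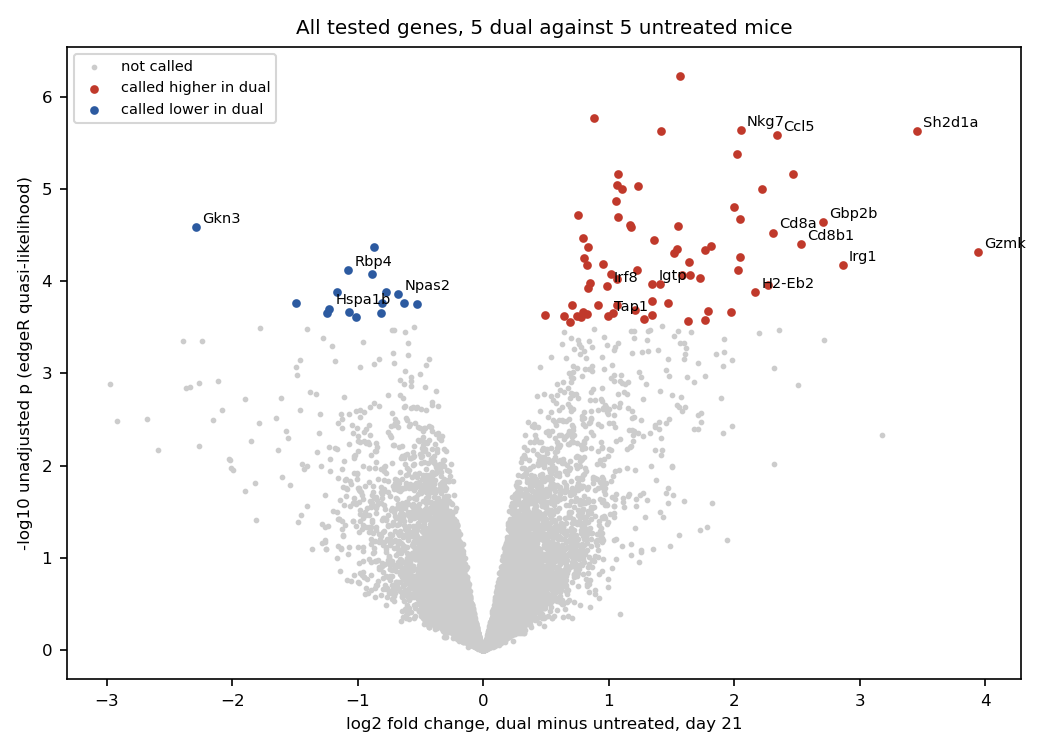
Each point is 1 of the 15503 tested genes, with the log2 fold change of dual ICI minus untreated mice on the x axis and -log10 of the unadjusted p on the y axis. The 73 genes called higher (red) reach 3.94 and the 16 called lower (blue) reach -2.29.

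Both CD8 chains rose, and 2 of the 9 tested genes of the T cell list. Cd8a (chr6:71373427-71379173 on GRCm38, as for all gene positions here), which encodes the CD8 alpha chain of cytotoxic T cells, was at 4.17, 1.55, 3.05, 3.22 and 1.77 CPM in the untreated mice and 10.2, 10.5, 15.9, 23.5 and 8.39 CPM in the dual ICI mice. The lowest treated mouse, mouse 5, stood at about 2 times the highest untreated mouse, and mouse 4 was the highest. The gene rose 4.96-fold (log2 fold change 2.31 ± 0.35 (SE), adjusted p = 0.0193). Cd8b1, the beta chain at chr6:71322788-71337494, was at 1.36, 0.388, 1.37, 0.842 and 0.517 CPM in untreated and 4.88, 4.59, 4.94, 8.74 and 2.86 CPM in dual ICI mice and rose 5.79-fold (log2 fold change 2.53 ± 0.39 (SE), adjusted p = 0.0222). The groups did not overlap for either chain. Cd3g, a chain of the T cell receptor complex, ranged from 1.16 to 2.34 CPM in untreated and from 4.48 to 10.2 CPM in dual ICI mice (log2 fold change 1.82 ± 0.28 (SE), adjusted p = 0.0222). Cd247, the zeta chain that carries the signal into the cell, ranged from 1.44 to 1.94 CPM in untreated and from 3.37 to 4.2 CPM in dual ICI mice (log2 fold change 1.23 ± 0.16 (SE), adjusted p = 0.012), and its treated mice were close to each other.

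Of the T cell list, 9 members were tested, of which 2 rose (Cd3g and Cd247) and all 9 had an unadjusted p under 0.05 with a positive difference (median log2 fold change 1.23, against 0.02 over all genes). Neither was called without untreated mouse 1 or untreated mouse 5, and 1 gene of the list was called without dual ICI mouse 3 or untreated mouse 4, while DESeq2 called 6. Cd3e, at 3.51, 1.63, 3.41, 2.65 and 2.51 CPM in untreated and 6.06, 4.95, 9.29, 11.1 and 5.5 CPM in dual ICI mice, did not overlap between groups but missed the threshold (log2 difference 1.43, adjusted p = 0.053). In the list of T cell receptor signalling, 2 of 19 genes rose, the kinase Zap70 (log2 fold change 1.23 ± 0.21 (SE), adjusted p = 0.0275) and the adaptor Lat (log2 fold change 1.48 ± 0.27 (SE), adjusted p = 0.0418), and 14 had an unadjusted p under 0.05 with a positive difference. Sh2d1a encodes SAP, the adaptor of SLAM family receptors. It had 2, 2, 2, 2 and 1 counts in the untreated libraries and 20, 14, 25, 41 and 13 in the dual ICI libraries, a ratio of 11.9 (95% exact interval 6.03 to 26.6, which covers counting error only). Its adjusted p was 0.00681 in edgeR's test. Spn (CD43) and Cxcr6, a chemokine receptor of tissue-resident T cells, rose as well (1.17 and 2.00 on the log2 scale).

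The helper and regulatory markers were not called. Cd4 was at 2.99, 2.06, 4.53, 3.73 and 3.91 CPM in untreated and 5.05, 5.35, 6.95, 9.28 and 6.61 CPM in dual ICI mice, with no overlap between groups and a log2 difference of 0.95 (adjusted p = 0.125). Foxp3, the transcription factor of regulatory T cells, was at 1.63, 1.28, 2.23, 1.95 and 1.74 CPM in untreated and 0.929, 1.31, 2.67, 2.4 and 2.73 CPM in dual ICI mice, with overlapping groups (log2 difference 0.19, adjusted p = 0.913). Ncr1 of NK cells (log2 difference 0.72, adjusted p = 0.543) and Cd79a of B cells (log2 difference 0.59, adjusted p = 0.57) also overlapped. Of the 6 genes of the regulatory T cell list, 0 were called, 2 had an unadjusted p under 0.05 with a positive difference (Cd4 and Ccr8) and 1 with a negative one, Lrrc32, a TGF-beta-binding protein also made outside T cells, with a log2 difference of -0.35 (adjusted p = 0.443). Ccr8, a chemokine receptor, had a log2 difference of 1.40 (adjusted p = 0.164). Of the NK cell list, 0 of 8 tested genes were called and 3 had an unadjusted p under 0.05; of the B cell list, 0 of 7 were called and 2 had one.

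**Figure D3:**
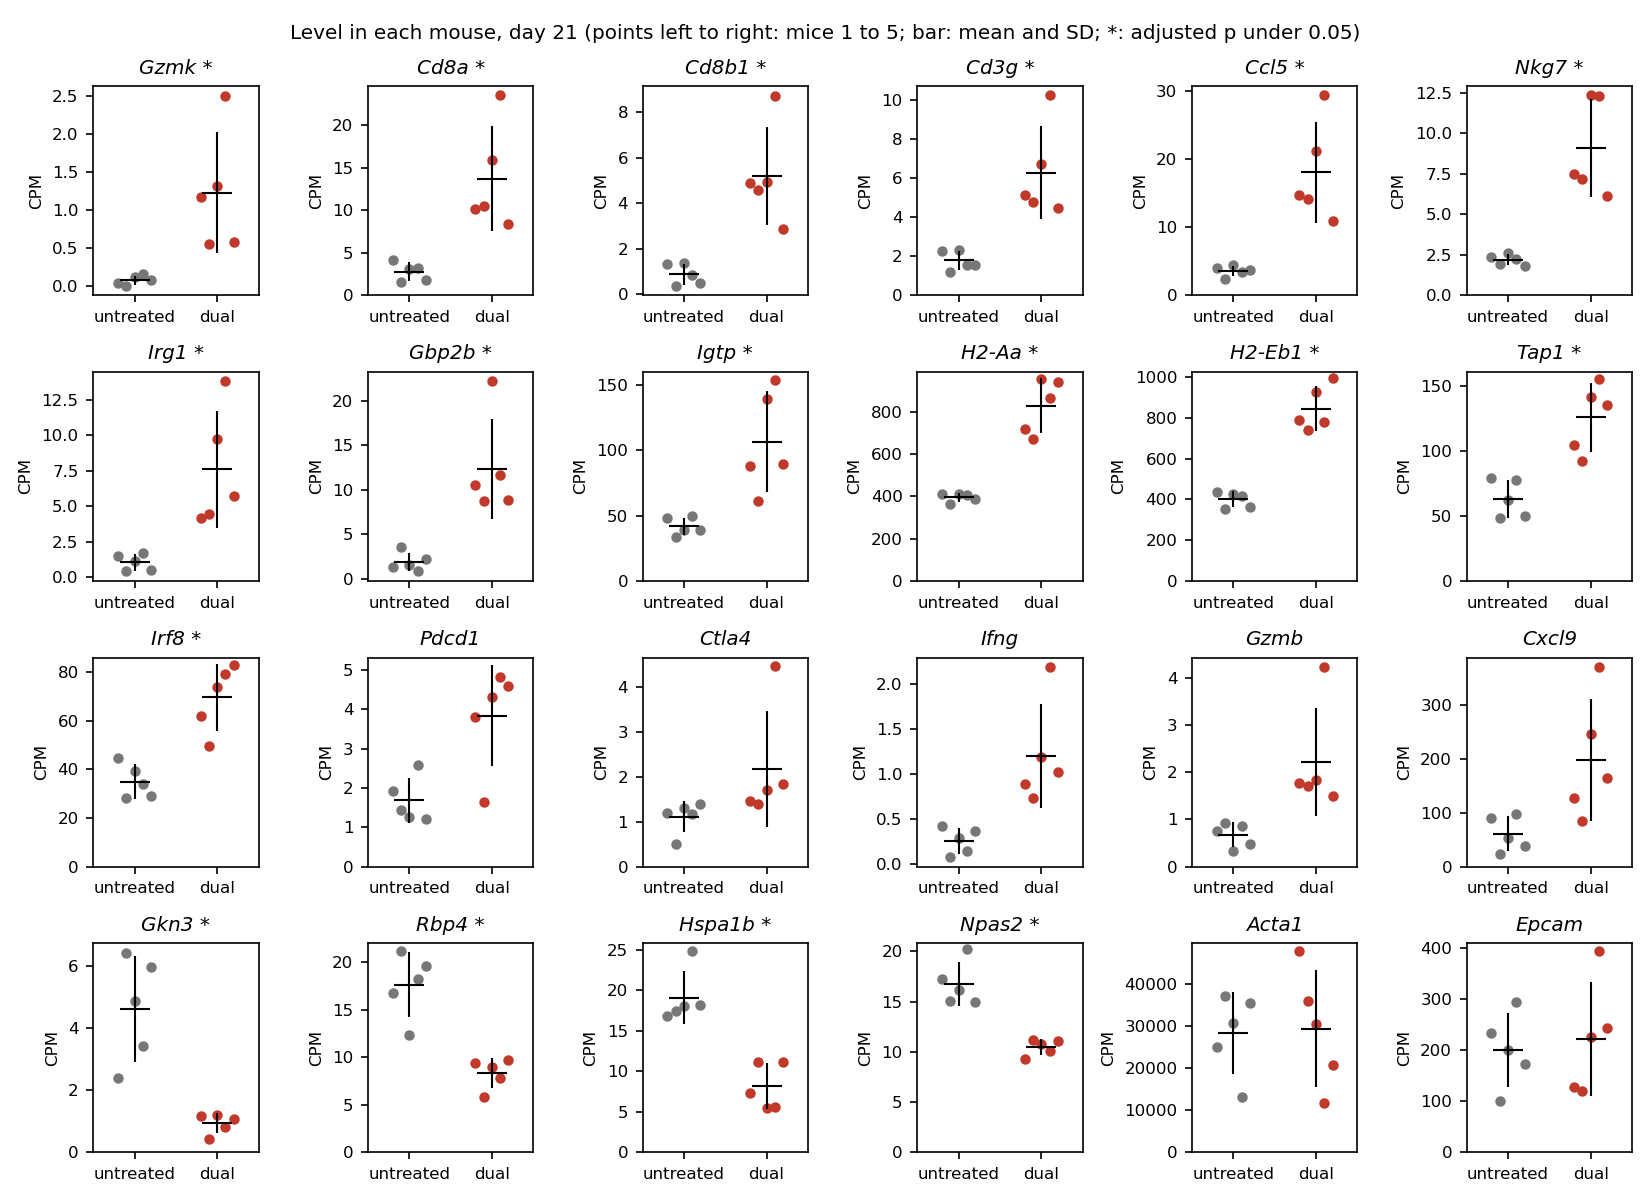
Level of 24 genes (y axis, CPM) in each untreated (grey) and dual ICI (red) mouse, with mean and SD as a bar and an asterisk for an adjusted p under 0.05. The treated mice lie above all untreated mice for Cd8a and Ccl5 and below them for Gkn3 and Npas2, while the groups overlap for Acta1, Epcam and Ctla4.

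Genes of the cytotoxic granule rose next to the T cell genes. Gzmk, a granzyme at chr13:113171608-113225908, had 1, 0, 3, 5 and 2 counts in the untreated libraries and 29, 15, 40, 93 and 18 in the dual ICI libraries, a ratio of 16.7 (95% exact interval 9.15 to 34.1, counting error only). It had the largest fold change of the 89 genes (edgeR's log2 fold change 3.94 ± 0.63 (SE), adjusted p = 0.0224). Nkg7, a membrane protein of cytotoxic granules, was at 2.37, 1.94, 2.62, 2.22 and 1.81 CPM in untreated and 7.51, 7.17, 12.4, 12.3 and 6.11 CPM in dual ICI mice and rose 4.15-fold (log2 fold change 2.05 ± 0.24 (SE), adjusted p = 0.00681). Mice 3 and 4 stood apart at the top of the treated group. Ctsw, a protease of cytotoxic lymphocytes, and Srgn, the proteoglycan that packs granules, rose as well (1.59 and 0.92). Of the 13 tested genes of this list, 4 rose and 9 had an unadjusted p under 0.05 with a positive difference. Gzmb, granzyme B, at 0.765, 0.931, 0.323, 0.872 and 0.48 CPM in untreated and 1.78, 1.71, 1.84, 4.23 and 1.49 CPM in dual ICI mice, did not overlap between groups and was not called (log2 difference 1.71, adjusted p = 0.0761). Prf1, perforin, and Fasl, a death ligand, had log2 differences of 1.48 (adjusted p = 0.0901) and 1.89 (adjusted p = 0.119).

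Ccl5 and Ccl4 rose, 2 of the 23 tested members of a chemokine list without the CXCR3 ligands, of which 10 had an unadjusted p under 0.05 with a positive difference and 1 with a negative one (median 0.54). Ccl5 (chr11:83525778-83530518), which attracts T cells and monocytes, was at 3.93, 2.44, 4.38, 3.34 and 3.62 CPM in untreated and 14.7, 14.1, 21.1, 29.3 and 10.8 CPM in dual ICI mice and rose 5.08-fold (log2 fold change 2.34 ± 0.28 (SE), adjusted p = 0.00681). Its untreated mice lay within 2.44 to 4.38 CPM, and the lowest treated mouse was above 2 times the highest of them. Ccl4, a chemokine released by activated T cells and macrophages, ranged from 0.369 to 0.939 CPM in untreated and from 2.18 to 5.2 CPM in dual ICI mice (log2 fold change 2.47 ± 0.32 (SE), adjusted p = 0.0119). The member with a negative difference was Cxcl17, a chemokine of mucosal tissues, at 1.88, 1.71, 1.40, 4.96 and 1.99 CPM in untreated and 0.242, 0.0364, 0.527, 0.917 and 0.890 CPM in dual ICI mice, without overlap (log2 difference -2.16, adjusted p = 0.154). The interferon-induced ligands of CXCR3 were not called. Cxcl9 was at 89.8, 24.1, 52.3, 98.4 and 38.1 CPM in untreated and 126, 85.1, 245, 369.9 and 164 CPM in dual ICI mice. Its groups overlapped in mouse 2 of the treated group, and its log2 difference was 1.71 (adjusted p = 0.145). Cxcl10 had a log2 difference of 1.58 (adjusted p = 0.136). All 4 genes of the CXCR3 list had an unadjusted p under 0.05 with a positive difference (median 1.37).

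Ifng, which encodes interferon gamma, was measured at low counts. It had 12, 2, 8, 5 and 10 counts in the untreated libraries and 22, 20, 36, 81 and 32 in the dual ICI libraries. No treated mouse overlapped the untreated mice, and the log2 difference of 2.20 (adjusted p = 0.0539) missed the threshold. Il12rb1, a chain of the interleukin 12 receptor that drives Ifng in T cells, was at 1.39, 0.776, 2.16, 1.56 and 1.37 CPM in untreated and 5.21, 4.66, 6.46, 6.96 and 6.36 CPM in dual ICI mice and rose 4.07-fold (log2 fold change 2.03 ± 0.25 (SE), adjusted p = 0.00931). It was the only one of 16 genes of this list that was called, with 8 at an unadjusted p under 0.05.

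Members of both families of interferon-induced GTPases rose. Of 11 guanylate binding proteins, 3 rose, all 11 had an unadjusted p under 0.05 with a positive difference, and 4 did not overlap between groups (median 1.16). Gbp2b (chr3:142594847-142619179), whose promoter is given above, was at 1.29, 3.57, 1.62, 0.842 and 2.22 CPM in untreated and 10.5, 8.74, 22.2, 11.7 and 8.84 CPM in dual ICI mice and rose 6.53-fold (log2 fold change 2.71 ± 0.40 (SE), adjusted p = 0.0176), with mouse 3 highest. Gbp10 (log2 fold change 2.05 ± 0.30 (SE), adjusted p = 0.0176) and Gbp11 (log2 fold change 1.54 ± 0.24 (SE), adjusted p = 0.0223) rose as well. The family lies in separate clusters, with Gbp2b on chromosome 3 and Gbp10 and Gbp11 on chromosome 5, and reads can be split among similar neighbours. Of 10 immunity-related GTPases, 2 rose and 9 had an unadjusted p under 0.05 with a positive difference (median 1.18). Igtp (chr11:58199556-58207591) was at 48.2, 33.9, 38.7, 49.6 and 38.8 CPM in untreated and 87.9, 61.6, 139.5, 154 and 89.9 CPM in dual ICI mice (log2 fold change 1.35 ± 0.23 (SE), adjusted p = 0.0319). Iigp1 was at 61.2, 44.6, 46.7, 60.5 and 43.9 CPM in untreated and 107, 75.1, 215, 277 and 123 CPM in dual ICI mice (log2 fold change 1.63 ± 0.32 (SE), adjusted p = 0.0478). Mice 3 and 4 were the highest for both. Gm12185, a predicted gene, rose by 1.65. In the promoter table, 5 of 5 guanylate binding protein genes with an entry had an ISRE match and 6 of 7 GTPase genes had one, while 2 of 5 and 5 of 7 had a GAS match. Of the antigen presentation lists, 0 of 8 MHC class II genes with an entry had an ISRE match and 1 of 8 a GAS match, and 1 of 13 MHC class I genes had each. Of the genes best known for their response to type I interferon, 0 of 21 were called, 2 had an unadjusted p under 0.05 with a positive difference and 1 with a negative one (median 0.23), and 7 of the 16 with a promoter entry also had an ISRE match. Mx1 and Oas2, antiviral genes, had log2 differences of 0.66 (adjusted p = 0.37) and -0.72 (adjusted p = 0.199).

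Genes of antigen presentation rose in both classes. Of 11 genes of MHC class II, which presents peptides to CD4 T cells, 7 rose and all 11 had an unadjusted p under 0.05 with a positive difference, with a median of 1.01. H2-Aa (chr17:34282744-34287823) was at 409.7, 363, 414, 405 and 388 CPM in untreated and 718, 669.9, 955, 867 and 942 CPM in dual ICI mice (log2 fold change 1.07 ± 0.14 (SE), adjusted p = 0.012). H2-Eb1 ranged from 356 to 439 CPM in untreated and from 741 to 995 CPM in dual ICI mice (log2 fold change 1.08 ± 0.14 (SE), adjusted p = 0.0119), and H2-Ab1 from 324 to 390.0 CPM and from 552 to 876 CPM (log2 fold change 1.06 ± 0.15 (SE), adjusted p = 0.0151). In these 3 abundant genes the untreated mice were tightly grouped. H2-Eb2, a low-expressed relative, had the largest change of the list (log2 fold change 2.17 ± 0.39 (SE), adjusted p = 0.0353). The peptide-loading chaperones H2-DMa, H2-DMb1 and H2-DMb2 rose by 0.89, 0.76 and 1.42. Cd74, the invariant chain, was higher in all treated mice and missed the threshold (log2 difference 0.77, adjusted p = 0.0673), as did Ciita, the coactivator of the class (log2 difference 0.79, adjusted p = 0.153), whose groups overlapped.

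Of 16 genes of MHC class I and peptide loading, 4 rose and 13 had an unadjusted p under 0.05 with a positive difference (median 0.65). The 4 were the immunoproteasome subunits Psmb8, Psmb9 and Psmb10 and the transporter Tap1. Tap1 (chr17:34187553-34197225) was at 78.8, 48.2, 61.9, 77.5 and 49.9 CPM in untreated and 105, 92.4, 142, 156 and 135 CPM in dual ICI mice (log2 fold change 0.99 ± 0.19 (SE), adjusted p = 0.0444). Psmb9 was at 29.9, 22.2, 24.1, 28 and 21.1 CPM in untreated and 46.4, 43.7, 67.5, 59.5 and 51.9 CPM in dual ICI mice (log2 fold change 1.10 ± 0.15 (SE), adjusted p = 0.012). Of 8 tested nonclassical class I genes, H2-Q2, H2-Q4 and H2-M3 rose (1.64, 0.75 and 0.69). The H2-Q genes are close paralogs, so their counts are uncertain.

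**Figure D4:**
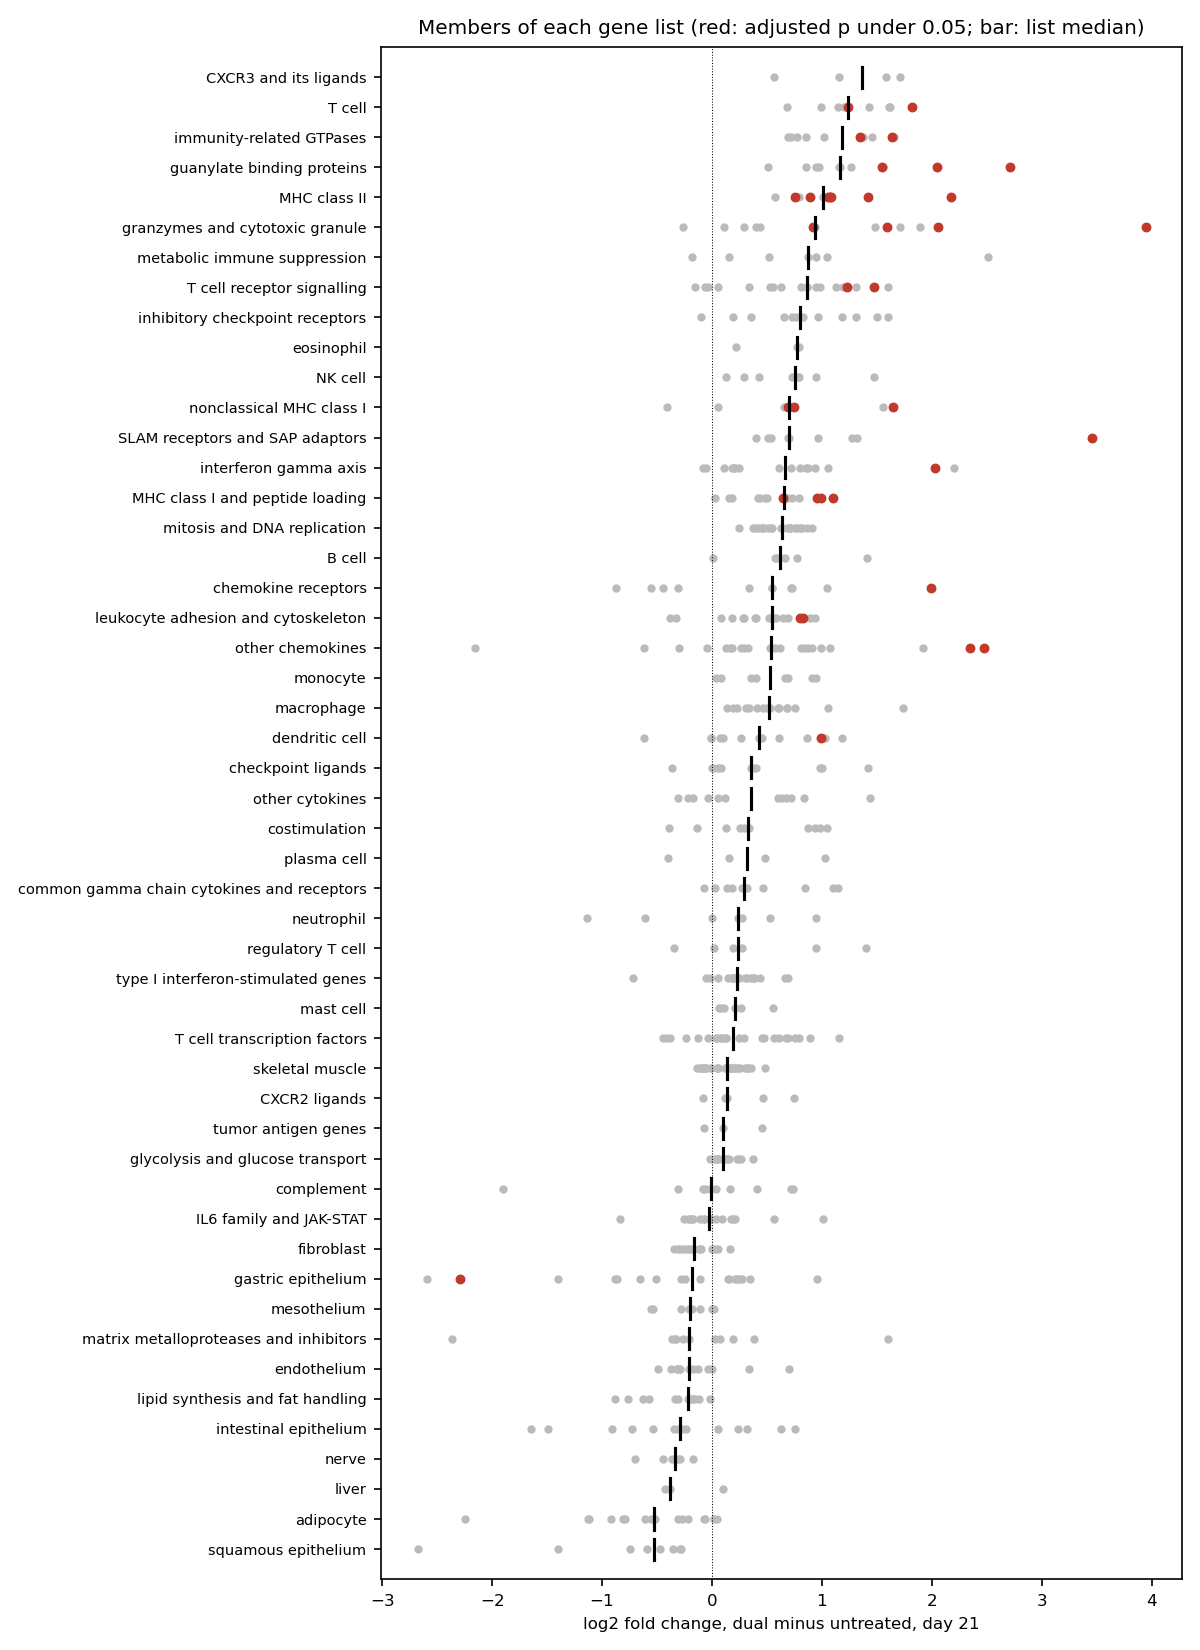
Log2 fold change (x axis) of the tested members of each gene list (rows), red where the adjusted p was under 0.05, with the list median as a bar. The CXCR3, T cell, GTPase and MHC class II lists lie to the right, and the adipocyte and squamous epithelium lists to the left.

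Of the myeloid marker lists, 0 of 16 macrophage, 0 of 8 monocyte and 0 of 7 neutrophil genes were called, and 1 of 13 dendritic cell genes, Irf8. Without dual ICI mouse 1, 3 macrophage genes were called higher, and without dual ICI mouse 4, 1 was. Without untreated mouse 3, 1 neutrophil gene was called higher. DESeq2 called 5 macrophage, 2 monocyte and 1 neutrophil genes higher, and the skeletal muscle covariate 5, 1 and 0. Other called genes known from myeloid cells are given here, grouped after their values were seen. Irg1 (chr14:103046977-103056573), which makes itaconate in activated macrophages and is now named Acod1, was at 1.46, 0.388, 1.11, 1.71 and 0.48 CPM in untreated and 4.2, 4.44, 9.78, 13.8 and 5.72 CPM in dual ICI mice and rose 7.29-fold (log2 fold change 2.87 ± 0.47 (SE), adjusted p = 0.026). Irf8 (chr8:120736358-120756694), required for dendritic cells and monocytes, was at 44.8, 28.1, 39.3, 33.9 and 28.8 CPM in untreated and 62.1, 49.4, 73.9, 79.3 and 82.7 CPM in dual ICI mice (log2 fold change 0.99 ± 0.17 (SE), adjusted p = 0.0322). Slamf8, a SLAM family receptor of macrophages, was at 4.24, 3.92, 2.98, 4.18 and 3.88 CPM in untreated and 9.29, 9.87, 12.7, 13.4 and 11.9 CPM in dual ICI mice (log2 fold change 1.57 ± 0.16 (SE), adjusted p = 0.00681). Of 89 genes it had the smallest p, with the treated mice all from 9.29 to 13.4 CPM. Aif1, a macrophage calcium-binding protein, Cd180, a receptor related to the toll-like receptors, Clec12a, a myeloid lectin, and the integrin chain Itgb2 rose by 1.18, 1.21, 1.36 and 0.82. Coro1a, a leukocyte actin regulator, rose by 0.80. Of the 16 macrophage markers, 10 had an unadjusted p under 0.05 with a positive difference (median 0.51); Adgre1 (F4/80) overlapped between groups (log2 difference 0.68, adjusted p = 0.169) and C1qb did not (log2 difference 0.76, adjusted p = 0.0585). Of the dendritic cell list, 6 had an unadjusted p under 0.05 with a positive difference (median 0.43), and Cd209a, a lectin, was lower in all treated mice without passing the test (log2 difference -0.62, adjusted p = 0.225). Of the monocyte list, 3 had an unadjusted p under 0.05 with a positive difference (median 0.53). Of the 7 tested neutrophil genes, 4 had a positive difference (median 0.24), 1 of them, Retnlg, with an unadjusted p under 0.05 (log2 difference 0.94, adjusted p = 0.205), and Il1r2, a decoy receptor, had the lowest value (log2 difference -1.14, adjusted p = 0.543). S100a8, an abundant neutrophil protein, was at 3.58, 1.47, 3.05, 6.85 and 2.47 CPM in untreated and 1.7, 1.46, 4.91, 12.5 and 4.61 CPM in dual ICI mice (log2 difference 0.53, adjusted p = 0.837).

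Further genes rose. Ubd, a ubiquitin-like protein induced by interferon gamma, was at 7.97, 1.9, 6.61, 7.79 and 3.51 CPM in untreated and 21.3, 16.5, 30.7, 44.8 and 21 CPM in dual ICI mice (log2 fold change 2.27 ± 0.40 (SE), adjusted p = 0.0319). Serpina3f and Serpina3g, serine protease inhibitors of a family of close copies, rose by 2.22 and 2.03, and each has a GAS match in its promoter window. Ms4a4b, Gimap7, Gimap3, Cd52, Cst7, Klra2, Tbc1d10c and Sept1 rose by between 0.79 and 1.98. Slc11a1, a metal transporter of phagosomes, Hk3, Lat2, Tbxas1, Pira6, Cyp4f18, Plbd1 and Sla rose by between 0.49 and 1.35. The remaining genes that rose, between 0.86 and 2.05, were 5430437J10Rik, Alox12e, Dnase1l3, Btnl2, Fam26f (now Calhm6), Baiap3, Apol10b, F10, Cyp7b1 and Trp53i11.

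The targets of the antibodies and their ligands were not called. Pdcd1, which encodes PD1, was at 1.91, 1.44, 1.26, 2.59 and 1.22 CPM in untreated and 3.79, 1.64, 4.31, 4.83 and 4.58 CPM in dual ICI mice. Treated mouse 2 lay within the untreated range, and the other treated mice were above it (log2 difference 1.18, adjusted p = 0.151). Ctla4 was at 1.18, 0.504, 1.29, 1.17 and 1.4 CPM in untreated and 1.45, 1.38, 1.71, 4.45 and 1.84 CPM in dual ICI mice, with mouse 4 far above the rest (log2 difference 0.97, adjusted p = 0.37). Of 12 inhibitory receptors, 0 were called and 8 had an unadjusted p under 0.05 with a positive difference (median 0.80). Cd96 (fold 3.03, adjusted p = 0.0585), Lair1 (log2 difference 1.31, adjusted p = 0.0585) and Tigit (log2 difference 1.51, adjusted p = 0.114) had the smallest p-values of the list. Cd274, which encodes PD-L1, was at 16.1, 11.5, 12.2, 15.6 and 11.2 CPM in untreated and 17.1, 16.8, 31.1, 44.1 and 24.3 CPM in dual ICI mice, did not overlap and had a log2 difference of 1.00 (adjusted p = 0.136). Ido1, an enzyme of tryptophan breakdown, did not overlap either (log2 difference 2.51, adjusted p = 0.0998). In the list of the IL6 family and JAK-STAT genes, 0 of 20 were called and the median was -0.02.

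Genes that fell were fewer and from other groups. Gkn3, a gastrokine of the stomach lining at chr6:87383256-87388935, was at 2.4, 6.44, 4.89, 3.43 and 5.98 CPM in untreated and 1.17, 0.437, 1.22, 0.809 and 1.08 CPM in dual ICI mice, the largest decrease of the 16 (log2 fold change -2.29 ± 0.34 (SE), adjusted p = 0.0176). It was the only called gene of 18 tested gastric epithelium genes. Of the 18, 5 had an unadjusted p under 0.05 with a negative difference and 0 with a positive one. The median log2 difference of the list was -0.18, with 8 positive. With the gastric epithelium score as a covariate, 8 of the list were called higher and 4 lower. That score is the mean of these same genes, so calls on both sides follow from its making and are not read further. Pgc, pepsinogen C, and Tff2, a trefoil factor, had differences of -1.40 (adjusted p = 0.0531) and -2.59 (adjusted p = 0.208), and Krt8, a keratin of simple epithelia, had a log2 difference of 0.25 (adjusted p = 0.896). Rbp4, retinol binding protein, was at 16.8, 21.2, 12.4, 18.2 and 19.6 CPM in untreated and 9.45, 5.86, 8.96, 7.87 and 9.67 CPM in dual ICI mice (log2 fold change -1.08 ± 0.18 (SE), adjusted p = 0.0275). Lgals12, a galectin of fat cells, Aoc3, an amine oxidase of fat and vessels, and Tshr, the thyrotropin receptor, fell by 0.88, 0.81 and 1.01 on the log2 scale. Of 17 adipocyte genes, 0 were called, 6 had an unadjusted p under 0.05 with a negative difference and the median was -0.53. Lep, leptin, was at 26.9, 46.4, 10.5, 9.14 and 12.7 CPM in untreated and 6.46, 5.9, 2.93, 3.32 and 3.75 CPM in dual ICI mice without overlap (log2 difference -2.24, adjusted p = 0.0585). Tagln3, C030034L19Rik, Pla2g5, a secreted phospholipase, Fgfr3, a growth factor receptor, Banp, Mtcl1, Cyyr1, Podxl, a sialomucin of vessels, and Tppp fell by between 0.53 (Tppp) and 1.49 (Tagln3) on the log2 scale. The adipocyte list took 1.1, 1.21, 1.07, 0.675 and 1.26% of the counts in untreated and 1.22, 1.11, 1, 0.635 and 0.704% in dual ICI mice. The part of fat tissue in these results was not tested.

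Hspa1b, an inducible heat shock protein at chr17:34956436-34959238, was at 16.9, 17.5, 18.1, 24.8 and 18.2 CPM in untreated and 7.31, 11.2, 5.53, 5.58 and 11.2 CPM in dual ICI mice (log2 fold change -1.23 ± 0.23 (SE), adjusted p = 0.0444). Its neighbour Hspa1a, a near-identical copy with which it can share reads, had a log2 difference of -1.07 (adjusted p = 0.141). Npas2 (chr1:39193731-39363236), a transcription factor of the circadian clock, was at 17.2, 15.1, 16.1, 20.3 and 15 CPM in untreated and 9.33, 11.2, 10.8, 10.1 and 11 CPM in dual ICI mice (log2 fold change -0.68 ± 0.12 (SE), adjusted p = 0.0362), and was not called in any fit with a mouse left out. In a clock list chosen after its values were seen, Dbp was at 4.97, 14.1, 8.3, 4.66 and 10.9 CPM in untreated and 45.1, 30, 19.8, 11.1 and 40.6 CPM in dual ICI mice (log2 difference 1.77, adjusted p = 0.0904) and Per2 at 16.3, 16.6, 12.8, 25.8 and 12.1 CPM in untreated and 5.33, 6.15, 8.93, 11.2 and 10.7 CPM in dual ICI mice (log2 difference -0.98, adjusted p = 0.149). Of the 15 genes of this clock list, 0 were called higher and 1 lower, Npas2. At an unadjusted p under 0.05, 3 had a positive and 4 a negative difference. In all, 7 had a positive difference (median -0.02). The hour of collection was not given in the sources used here, and its part in these values was not tested.

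**Figure D5:**
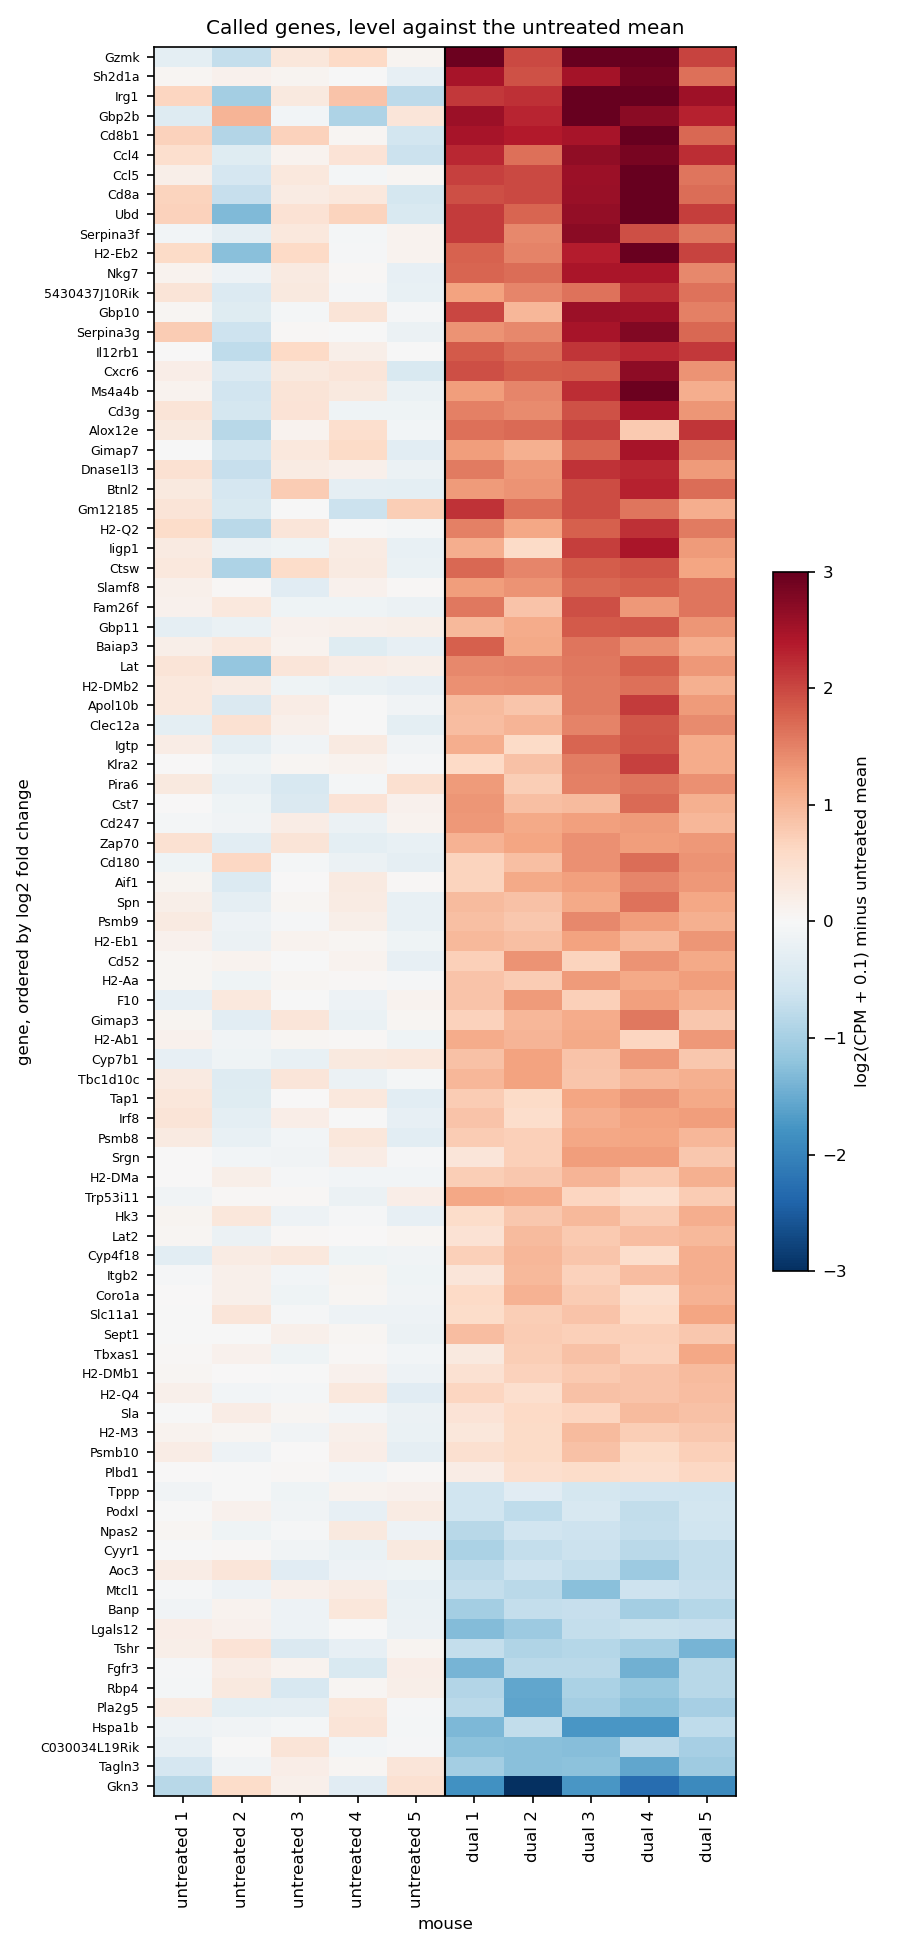
Level of the 89 called genes (rows, ordered by log2 fold change) in each mouse (columns), as log2(CPM + 0.1) minus the untreated mean, with colors limited to -3 and 3. All 5 treated mice are red for the 73 genes that rose, and mouse 4 holds the highest treated level for 40 of them.

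The genes of the 3 tumor antigens known for these cells were not called. Cdt1, Zfp106 and Scarb2 had log2 differences of 0.46 (adjusted p = 0.634), -0.07 (adjusted p = 0.968) and 0.10 (adjusted p = 0.807), with overlapping groups; the mutated transcripts cannot be seen in counts per gene. The 4 listed Y-linked genes had 0 counts in all 10 libraries of these female mice.

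Dual ICI and untreated mice were also compared on day 35, with 5 dual ICI and 5 untreated mice. By the study's schedule, these dual ICI mice had further injections after day 12, so the dosing differs as well as the day. On day 35, 0 genes were called by edgeR and 1071 had an unadjusted p under 0.05. Of the 89 genes called on day 21, 86 had a value on day 35 and 59 had the same sign. These were 50 of the genes that rose and 9 of those that fell. The share of all tested genes that kept their sign is not given here, so the count has no background beside it. The 73 genes that rose had a median log2 fold change of 1.35 on day 21 and 0.25 on day 35. The difference between the days was tested as an interaction over 16021 genes. The library identifiers also differ between the days, so day, dosing and library set cannot be told apart in it. By edgeR 0 genes passed, with 1648 at an unadjusted p under 0.05, and by DESeq2 29 passed. Of the 89 genes called on day 21, 55 were among those at an unadjusted p under 0.05. They had been selected by their day 21 values, which enter this test. No single gene was shown to differ between the days by edgeR's adjusted p. The study describes most of the dual ICI mice of the later day as cured and the others as not, so that contrast pools both kinds. The study's text gives this status by mouse number. The library labels do not state it, and the mice were not split by it here.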

How the data were processed

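RNA was sequenced from peritoneal tumor tissue, 1 library per mouse. The deposited table holds raw read counts for 24421 gene symbols, which the authors left without normalization. The sources differ on how they were made: the study's methods name STAR 2.5.2b and HTSeq 0.6.1 with paired-end reads of 150 bp, and the submitters' processing notes name STAR 2.7.0f and featureCounts 1.6.4, both with mm10. Strand and annotation are not given in the sources used here, so overlapping and antisense genes and close paralogs are uncertain.

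Counts of the 10 libraries were tested with edgeR 4.0.16 in R 4.3.3 (quasi-likelihood F test on TMM-normalized counts, low counts removed with filterByExpr, Benjamini-Hochberg adjusted p under 0.05). The SE was derived from the fold change and the F statistic. CPM used TMM-scaled totals. DESeq2 1.42.0 was an alternative, as were other normalizations and filters, tissue scores as covariates, thinning to 27581158 counts, blocking on the replicate number, leaving out each mouse and fitting all 29 libraries. Library totals were compared by exact permutation in scipy 1.17.1. On data simulated for the comparison at day 21, the edgeR test was tested with 200 changed genes.

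The groups came from the labels. Genes named singly were the 15 largest changes in each direction among the called genes, called members of the gene lists, up to 4 members of each described list by p, and a fixed set of marker, antigen and target genes; further ones were chosen after their values were seen. The comparison, the gene lists and the tests were chosen with earlier results of these data known. Gene positions came from GENCODE vM21 by symbol, which matched 23376 of 24421 symbols (95.7%). Each library came from its own mouse, so the spread holds handling and biology together.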

Additional observations from a re-analysis of the deposited data

Results flagged for a closer look

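In 292 groups of 5 mice examined on the log2 CPM scale, 18 held a mouse whose gap to the nearest of the others exceeded 0.710 of the group's range, and chance alone flags about 1 in 20 groups. Dual ICI mouse 4 was the highest of its group for Ctla4 at 2.18 against 0.94 (gap 0.757 of the range), for Gzmb at 2.10 against 0.94 (gap 0.800 of the range) and for Fasl at 1.30 against -0.26 (gap 0.762 of the range), and the lowest for Plin1, a fat droplet protein, at 3.91 against 5.24 (gap 0.731 of the range). Dual ICI mouse 2 was the lowest for Pdcd1 at 0.77 against 1.95 (gap 0.775 of the range) and for Lag3 at 2.38 against 2.93 (gap 0.754 of the range), and the highest for Tppp at 5.17 against 4.97 (gap 0.738 of the range). Dual ICI mouse 5 was the highest for Scarb2 at 7.01 against 6.82 (gap 0.752 of the range).

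Untreated mouse 2 was the lowest of its group for Ctla4 at -0.80 against 0.31 (gap 0.819 of the range), for Lair1 at 2.25 against 3.19 (gap 0.844 of the range), for Lat at -0.31 against 1.04 (gap 0.861 of the range) and for Lat2 at 2.94 against 3.13 (gap 0.824 of the range). It was the highest for Cd180 at 3.62 against 2.92 (gap 0.764 of the range) and for Slc11a1 at 4.85 against 4.46 (gap 0.727 of the range). Untreated mouse 4 was the highest for Hspa1b at 4.64 against 4.19 (gap 0.808 of the range) and for Msln, a mesothelial marker, at 7.90 against 7.09 (gap 0.809 of the range). Untreated mouse 5 was the lowest for Fasl at -2.21 against -1.56 (gap 0.762 of the range), and untreated mouse 3 for Slamf8 at 1.61 against 1.98 (gap 0.743 of the range).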

How the results depend on the processing

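The main fit called 89 genes, 73 higher and 16 lower. DESeq2 called 507 (332 higher, 175 lower), the skeletal muscle score as a covariate 660 (383 and 277) and the gastric epithelium score as a covariate 3359 (1921, 12.4% of those tested, and 1438, 9.28%). Each of these 3 fits called all 89 genes. The scores were computed from the same libraries, and the gastric list holds Gkn3. A fit of all 29 libraries called 8 (6 and 2), 7 of them among the 89, and 319 passed the unadjusted threshold of 0.05 together with a 2-fold change (203 and 116). With each mouse left out the count lay between 6 and 119, with 6 to 111 higher and 0 to 14 lower. It fell to 6, 13, 52, 34 and 23 on leaving out untreated mouse 5, 1, 2, 3 and 4 in that order, and to 16 and 30 on leaving out dual ICI mouse 3 and 5. The sign of all 89 genes was kept in each of those fits. The cause of the differences between tools and covariates was not tested. The remaining alternatives (DESeq2 size factors, upper-quartile normalization, no filter, at least 10 counts in every library, skeletal muscle genes removed, thinning) called between 76 and 96 genes, with between 76 and 89 of the 89 among them.

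The replicate number as a block called 209 genes (147 and 62), 80 of them among the 89. The numbers do not pair the mice: deviations of same-numbered mice correlated at -0.02, 0.36, -0.12, 0.62 and -0.30, and 2 of the 5 dual ICI mice correlated best with their own number. The interaction of treatment and day called 0 genes by edgeR and 29 by DESeq2. The number of genes with at least 1 count differed by -70 between the groups, opposite in sign to the totals (exact permutation p = 0.556). Among genes that were not called, the sign turned for Acta1 under the gastric covariate (-0.61), the muscle covariate (-0.0106) and the block (-0.0173). The muscle score holds Acta1 itself. With single mice left out, the log2 difference ran from -0.19 to 0.25 for Acta1, from -0.17 to 0.33 for Epcam, from -0.00933 to 0.47 for Krt8, from -0.15 to 0.93 for S100a8 and from -0.21 to 0.0239 for Zfp106, and the turns of Epcam, Krt8, S100a8 and Zfp106 came without dual ICI mouse 4 or, for Epcam (-0.0184) and Zfp106 (0.0036), also without untreated mouse 2.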

Other observations

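Genes of mitosis and DNA replication had positive differences in 23 of 23 members, against 54.6% of all tested genes. Of the 23, 0 were called and 5 had an unadjusted p under 0.05 (median log2 difference 0.63). Birc5, an inhibitor of apoptosis made in mitosis, was at 14.1, 5.82, 8.69, 19.7 and 10.8 CPM in untreated and 11.6, 14.7, 21.5, 39.6 and 20.1 CPM in dual ICI mice (log2 difference 0.86, adjusted p = 0.424), and Pcna, the sliding clamp of DNA polymerase, had a log2 difference of 0.54 (adjusted p = 0.309). With the gastric epithelium score as a covariate, 23 of 23 were called higher. Their summed level was 714, 349.5, 529.9, 842 and 598 CPM in untreated and 499.5, 626, 893, 1625 and 989 CPM in dual ICI mice, with mouse 4 highest of the treated mice and overlapping groups. On day 35 the median of these genes was -0.75. Krt5, a keratin of squamous epithelium, was at 1.7, 6.29, 12.6, 2.89 and 12.7 CPM in untreated and 0.646, 2.48, 0.0988, 1.67 and 0.731 CPM in dual ICI mice (log2 difference -2.68, adjusted p = 0.153), and 0 of 8 tested genes of that list were called.

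Of 13 endothelial genes, 0 were called and 4 had an unadjusted p under 0.05 with a negative difference (median -0.21). Marco, a scavenger receptor of macrophages, had a log2 difference of 1.74 (adjusted p = 0.139). The ligands of the inhibitory receptors included Pdcd1lg2 (log2 difference 1.42, adjusted p = 0.183) and Cd86 (log2 difference 0.98, adjusted p = 0.06), both without overlap between the groups.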
